A study of Solanum lycopersicum with 2 samples.

Results

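SlWUS is the tomato (Solanum lycopersicum) homologue of WUSCHEL, a homeodomain transcription factor, and 4422 of its 65452 listed binding peaks lay on chromosome 11. The members are all intervals that the deposited peak list places on that chromosome, and this rule uses no measured value, although the chromosome was picked with earlier results of these data known. They were 6.76% of the 65446 peaks on the 12 numbered chromosomes, which have 7.04% of the summed span. The peaks come from DNA affinity purification sequencing (DAP-seq), in which a tagged protein is mixed with a library of naked genomic DNA fragments and the fragments that it retains are sequenced. The series lists 2 samples, a SlWUS library and its input library, both of genomic DNA of the cultivar Ailsa Craig grown in a greenhouse. Their labels also carry the terms flower abscission zone and Halo, the second of which names a tag that DAP-seq uses to hold the protein. Both share the same plant material, and no mutant, treatment or time point is compared. With 1 library in each group, replicate error is unknown. The DNA carried no chromatin, so a peak shows DNA that the protein could bind in the tube and not occupancy in a plant.

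WUSCHEL keeps stem cells undifferentiated in plant meristems, and the small secreted peptide CLV3 restricts its expression in a feedback loop. The series title places the tomato pair in auxin and ethylene control during flower abscission in low light. The tomato CLV3 gene is assigned to chromosome 11, and the WUS gene to chromosome 2, in the RefSeq gene table of another assembly, SLM_r2.1. The place of either gene among the peaks was not analysed here. Tomato chromosomes carry most of their genes in euchromatin towards both ends, while the middle is pericentromeric heterochromatin filled with repeats. Positions below are on the SL4.0 build and are counted from 1. What lies at a position, be it an exon, an intron or a repeat, was not analysed here.

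Peaks on chromosome 11 were crowded into a block at each end, with a long thin middle between them. In 1 Mb windows, the first 7 windows held 105 to 153 peaks each (median 142). The last 6 full windows, from 48000001 to 54000000, held 126 to 151 (median 136.5). The 41 windows between them held 0 to 98 (median 63). On this grid no window of the middle reached the lowest window of either end block. The gap depends on the grid, since the 1 Mb just before position 47530988, in the middle, held 105 peaks. The limits of the blocks were set after the windows had been seen. The end blocks held 21.9% and 18.7% of the peaks on 12.9% and 11.04% of the span.

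The densest window of chromosome 11 ran from 3000001 to 4000000 and held 153 peaks. It was followed by 52000001 to 53000000 with 151, 50000001 to 51000000 with 150, 4000001 to 5000000 with 147 and 1000001 to 2000000 with 146. All of these lie in the end blocks. Apart from an empty window from 19000001 to 20000000, the sparsest windows started at 20000001 with 28 peaks, 15000001 with 31, 25000001 with 38, and 16000001 and 28000001 with 39 each. All lie between 15 and 29 Mb.

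Over its whole span of 54362155 bp, chromosome 11 averaged 81.3 peaks per Mb (79.0 to 83.8 as an exact Poisson 95% interval, counting error only). The other 11 chromosomes had 76.6 to 95.03, with a mean of 85.4 ± 6.17 (SD), and 7 of them were denser. A test of 1 chromosome against 11 takes chromosomes as the units and cannot give a p below 0.0833. For the overall density it gave 0.667 (exact two-sided permutation test, 0.842 after Benjamini-Hochberg adjustment over 24 measures). Its overall density thus lay within the range of the others.

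The contrast between ends and middle was steep. The distal zones, 10% of the span from either end, contained 1527 peaks, which is 140 per Mb. The central zone, from 30% to 70% of the span, contained 1258, which is 57.9 per Mb. The ratio was 2.43 (exact binomial 95% interval 2.25 to 2.62). On the other 11 chromosomes it ran from 1.15 on chromosome 2 to 2.43 on chromosome 9, with a mean of 1.97 ± 0.344 (SD). None of the others was higher (exact two-sided permutation p = 0.167, adjusted 0.6), and chromosomes 9 and 11 were alike to within 0.001. Under the other zones and stricter lists that were tried, chromosome 11 took ranks 1 to 4 of 12. The central density was below that of 10 of the 11 others (exact permutation p = 0.25). That zone includes the longest stretch without a peak, described below. With the longest stretch left out of the central zone, the ratio was 2.30, at rank 2 of 12. The left distal zone, at 145 peaks per Mb, was above 10 of the 11 (exact permutation p = 0.25). The right distal zone, at 136 per Mb, was below 8 of the 11.

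**Figure D1:**
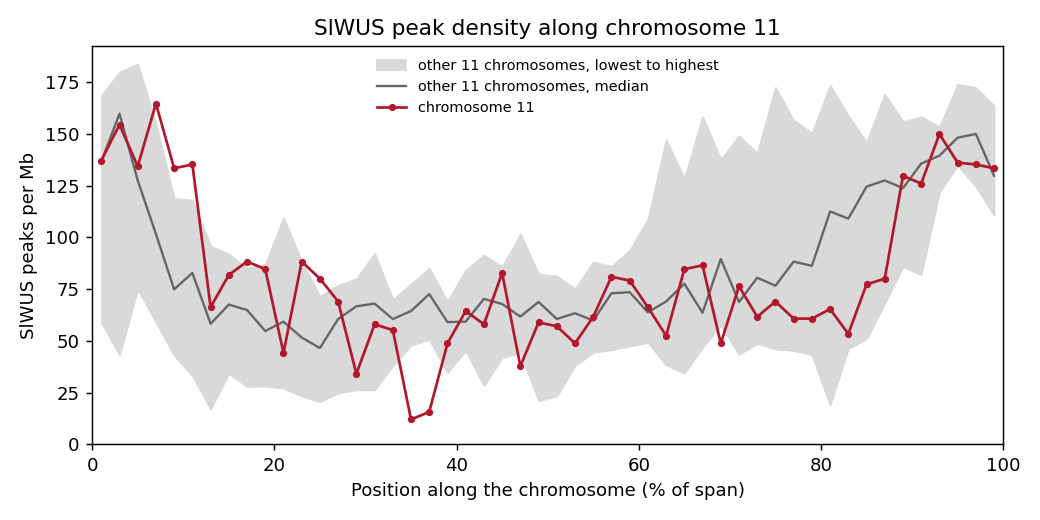
SlWUS peaks per Mb in 50 equal bins along chromosome 11 (red), with the median (dark line) and the range from lowest to highest (grey) of the other 11 chromosomes in the same bins of relative position. Both ends of chromosome 11 are dense, and the bins centred at 35% and 37% of the span, which overlap the longest peak-free stretch, fall to 11.96 and 15.6 peaks per Mb.

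By relative position, the left block of chromosome 11 reached further inwards than on the other chromosomes. The bins centred at 7%, 9% and 11% of the span had 165, 133 and 135 peaks per Mb, where the highest of the other 11 chromosomes had 155, 119 and 118. This is a description of 3 bins out of 50, picked after their values were seen.

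The dense right block of chromosome 11 was shorter than on most other chromosomes when distance was counted in bases. At 2 to 5 Mb from the right end the density was 139 peaks per Mb, beside a median of 141 on the others. At 5 to 10 Mb it was 90 per Mb, beside a median of 134 (range 78.8 to 153), and 10 of the 11 others were denser. At the left end the order was the other way round. Between 5 and 10 Mb from the left end chromosome 11 had 97.2 peaks per Mb, beside a median of 67.2 (range 53.8 to 104), and 1 of the 11 others was denser. These distances were not tested, and the chromosomes differ in length.

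A stretch of 1177266 bp, from 18827199 to 20004464, held no peak. It took up 2.17% of the span and lay at 35.7% of the way along the chromosome, in the central zone. At the mean central density a stretch of that length would hold 68.1 peaks. The longest stretches of the other 11 chromosomes were 363987 to 678396 bp, so that of chromosome 11 was 1.74 times the longest of these. By its midpoint, 1 of those 11 lay in the central zone of its chromosome. The stretch was described with its length already known, and no test was made. Whether reads could be placed inside it is not recorded in the peak list and was not tested.

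The peaks that border the stretch were moderate on the left and weak on the right. The last peak before it, from 18826959 to 18827198, had a summit of 25 fragments (counting interval 16.2 to 36.9, 95%), which is 5.12-fold over its background of 4.08. The background is the number of fragments that the peak caller expected at the summit, and 4.08 is its lowest value in the whole list. The first peak after the stretch, from 20004465 to 20004671, had 19 fragments (11.4 to 29.7) over 5.26, which is 3.19-fold. At 207 bp it was as narrow as the narrowest peak of the chromosome. Its fold was below the lower quartile of the chromosome, 3.35, and its count was below the median of 29. Neither border peak stood out from the median fold of chromosome 11, 4.32, by more than its counting interval. Counts this low give wide intervals, so this cannot tell a weak peak from a median one.

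The next peaks on both sides were 2.93- to 10.4-fold, and within 0.25 Mb of the stretch there were 6 peaks on the left and 7 on the right. The next peaks to the left had summits 67.0, 162, 187 and 214 kb from the stretch. Their folds were 10.4, 2.93, 5.09 and 3.36, with 52, 16, 33 and 24 fragments. Those to the right were 37.7, 154, 210 and 240 kb away, with folds of 4.76, 7.37, 4.65 and 8.95 and with 24, 45, 26 and 47 fragments. The background of the 10 nearest peaks lay between 4.08 and 6.43, and in 2 of them, both on the left, it was at its lowest value.

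Within 1 Mb of the stretch there were 58 peaks on the left and 28 on the right. The 22 flanks of 1 Mb beside the longest stretches of the other chromosomes held 32 to 94 peaks (median 61.5). None of them had as few as the right flank, and 9 had no more than the left flank. Flanks as thin did occur beside shorter stretches elsewhere. On chromosome 1 the right flank of a stretch of 535253 bp held 20 peaks, but this flank contained another peak-free stretch of 385005 bp. On chromosome 8 the left flank of one of 210154 bp held 28, but it contained most of the longest stretch of that chromosome, of 397987 bp. The right flank on chromosome 11 contained none of the 6 longest stretches of its chromosome, so these flanks are not alike. Flanks of shorter stretches were not compared as a set. The background was at its lowest value in 6 of the 28 right-hand peaks, or 21.4% (exact binomial 95% interval 8.30 to 41.0), and in 6 of the 58 on the left, or 10.3% (3.89 to 21.2). In the central zone as a whole the share was 10.2%, and over the 12 chromosomes it was 7.58%. The interval of the right flank includes the first of these shares and lies just above the second. Its median fold was 5.44, beside 5.33 on the left, over median backgrounds of 5.24 and 5.68. Above 10-fold were 3 of the 28 peaks on the right and 11 of the 58 on the left. Within 2 Mb the median folds were 4.75 on the right and 4.85 on the left. The listed peaks on the right were thus fewer, with a median fold close to that on the left. Whether strength differs between the flanks was not tested.

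**Figure D2:**
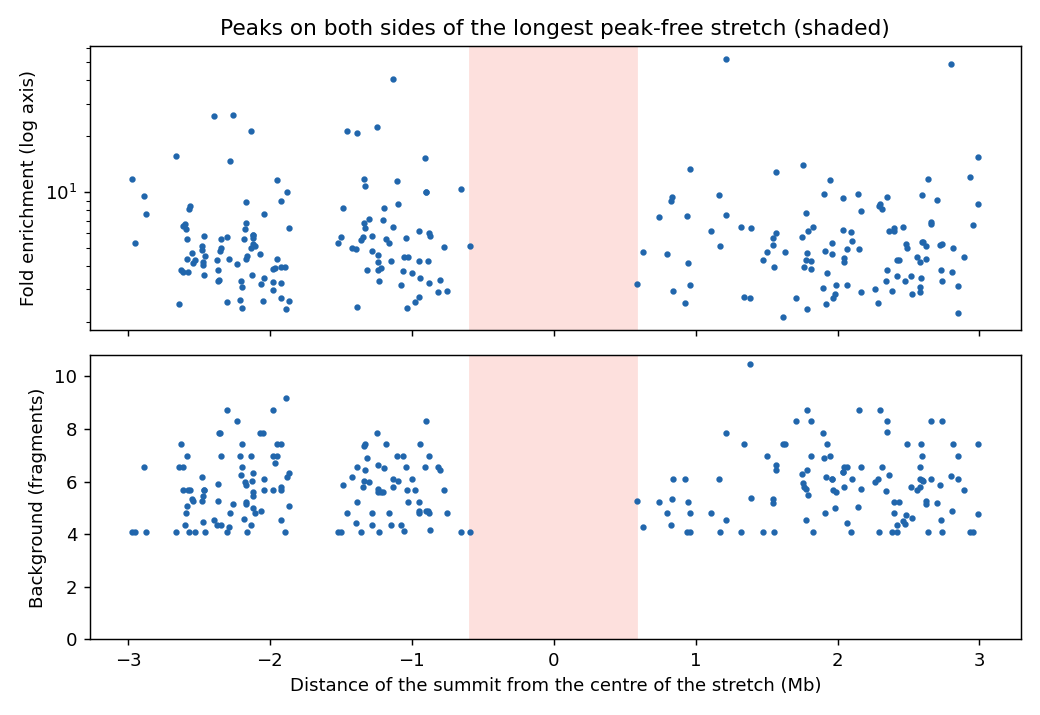
Fold enrichment (upper panel, log axis) and background in fragments (lower panel) of each peak within 3 Mb of the centre of the longest peak-free stretch, plotted against the distance from that centre in Mb. The shaded part is the stretch of 1.18 Mb, and the 28 peaks within 1 Mb on its right are sparser than the 58 on its left.

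The next longest peak-free stretch of chromosome 11 bordered the dense right block. It was 392812 bp long, from 47530988 to 47923799, and the longest stretch was 2.997 times as long. The 1 Mb on its left held 105 peaks and the 1 Mb on its right held 140. The window before the block, from 47000001 to 48000000, contains the whole stretch and held 62 peaks. The one after that, of 345026 bp, ran from 17551861 to 17896886, and another, of 290581 bp, from 22868021 to 23158601. All stretches over 100 kb together made up 11.7% of the span of chromosome 11, beside 10.5% ± 1.98 (mean and SD of the other 11). The others ranged from 6.57% to 13.1%, and 3 of the 11 were higher (exact two-sided permutation p = 0.583, adjusted 0.842).

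Most peaks on chromosome 11 were modest and narrow. The median fold was 4.32 (quartiles 3.35 and 6.06), and summits had a median of 29 fragments. A single peak with 29 fragments has a 95% counting interval of 19.4 to 41.6, which is not the uncertainty of the median. The order of peaks near the median is therefore not resolved at this depth. Folds ran from 1.99 to 139 and pileups from 12 to 949 fragments. The median width was 311 bp (quartiles 252 and 412), with a range of 207 to 1860 bp, and the peaks covered 1.63 Mb. Median fold on the other 11 chromosomes was 4.34 ± 0.0319 (SD) and median width 313 ± 2.09 bp. The exact permutation p of both differences was 0.583. Both medians of chromosome 11 lay within the range of the others.

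Stronger peaks were wider. The 661 peaks of up to 3-fold had a median width of 261 bp (quartiles 227 and 336). It was 277 bp in the 2140 peaks of 3- to 5-fold, 348 bp in the 1245 of 5- to 10-fold, 407 bp in the 312 of 10- to 20-fold and 451 bp in the 54 of 20- to 50-fold. The 10 peaks above 50-fold had a median of 601.5 bp (quartiles 497.5 and 799.25), beside 504 ± 13.7 bp (mean and SD of the medians of the other 11 chromosomes). That SD is between medians and does not measure the spread among 10 peaks. Width and fold come from the same pileup, so the order of these classes is no separate result.

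Very wide peaks were at the usual share. At least 800 bp were reached by 165 peaks, or 3.73%, beside 3.74% over the 12 chromosomes. Of these, 71 were distal and 31 central, and their median fold was 6.55. The widest, of 1860 bp from 45951727 to 45953586, was 9.79-fold with its summit at 15.7% of its width. The next were 1807 bp from 542747 to 544553 (11.2-fold), 1726 bp from 46942394 to 46944119 (13.2-fold), 1661 bp from 54053519 to 54055179 (6.09-fold) and 1523 bp from 14304931 to 14306453 (10.4-fold). In the peak of 1726 bp the summit lay at 90.01% of the width, near the edge opposite to that of the widest peak.

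Peaks above 20-fold were scarcer on chromosome 11 than on each of the other 11 chromosomes. They numbered 64, or 1.45% of its peaks (exact binomial 95% interval 1.12 to 1.84), beside 1.99% over the 12 chromosomes. The others ranged from 1.78% to 2.41% with a mean of 2.02% ± 0.191 (SD). The exact two-sided permutation test gave p = 0.0833, the smallest possible, and 0.6 after adjustment over 24 measures. The difference does not pass the correction, but no difference, however large, could have given a smaller p. The test therefore cannot decide whether the share differs. At lower and higher limits chromosome 11 was nearer to the rest. Above 10-fold were 376 peaks, or 8.50% (9.23% over the 12 chromosomes), which was below 10 of the 11 others. Above 50-fold were 10, or 0.226% (0.252% over the 12), which was below 6 of the 11. Above 100-fold were 3, or 0.0678% (0.0535% over the 12).

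In the distal zones the share was lower still. Both ends together had 9 peaks above 20-fold among 1527, or 0.589% (exact binomial 95% interval 0.270 to 1.12), where the distal zones of the 12 chromosomes had 1.45%. The other 11 chromosomes ranged from 1.05% to 2.03%, with a mean of 1.55% ± 0.307 (SD), and all 11 were higher (exact two-sided permutation p = 0.0833, the smallest possible, adjusted 0.6). Above 10-fold were 99 distal peaks, or 6.48% (7.87% over the 12 chromosomes), also below all 11 others (exact permutation p = 0.167, adjusted 0.6). Outside the distal zones chromosome 11 had 55 peaks above 20-fold among 2895, or 1.90%. The others had 1.84% to 2.73% there, and 9 of the 11 were higher (exact permutation p = 0.417). Per length, the distal zones held 0.828 peaks above 20-fold per Mb, beside 1.53 to 2.72 on the others. Whether the deficit differs between the zones was not tested, and the zones and the limit were chosen with results known.

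Both ends shared the pattern. The left zone had 6 peaks above 20-fold among 787, or 0.762%, where the left zones of the 12 chromosomes had 1.49%. In the right zone there were 3 among 740, or 0.405%, where the right zones of the 12 chromosomes had 1.42%. Each end was below the same end of all 11 others, which ranged from 0.785% to 3.61% on the left and from 1.08% to 2.07% on the right. On the left the margin to the next chromosome was thus small. Of the 9 peaks, 4 lay within 20.1- to 20.5-fold, so they passed the limit narrowly.

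The distal background moved with this result on the left. Left distal peaks of chromosome 11 had a median background of 6.52 fragments, above the 5.87 to 6.41 of the other left zones, and a median fold of 4.07, below 10 of the 11. On the right the median background was 6.30, below 10 of the 11 others, and the median fold was 4.21 beside a mean of 4.20 ± 0.0988 (SD). The part of the background in the low share was not tested. Ranked by fragments instead of fold, the same number of strongest peaks gave a distal share of 0.786% on chromosome 11, also below all 11 others.

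**Figure D3:**
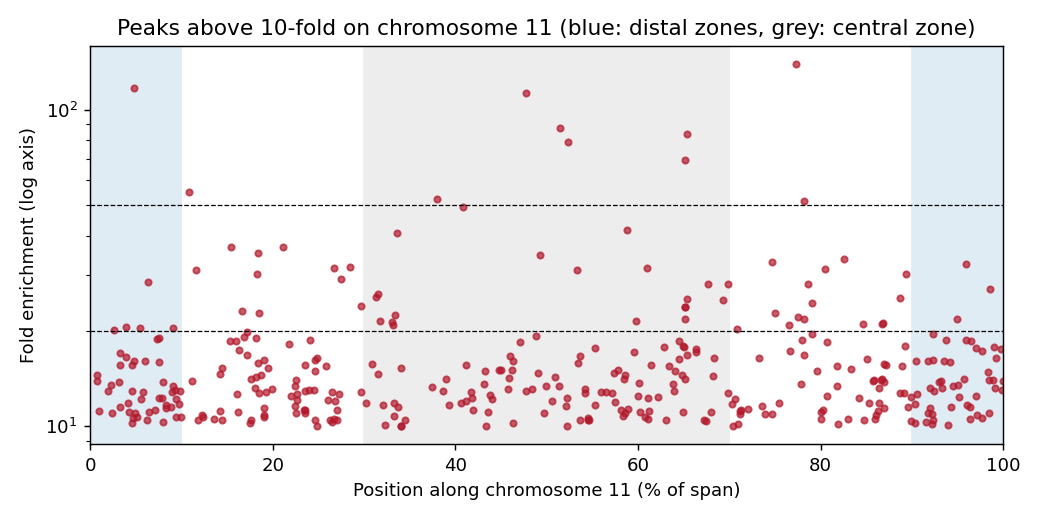
Fold enrichment (log axis) of the 376 peaks above 10-fold against their position along chromosome 11 in % of span, with the distal zones in blue, the central zone in grey and dashed lines at 20- and 50-fold. The distal zones hold 9 of the 64 points above 20-fold, and 1 of the 10 above 50-fold.

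The strongest peak of chromosome 11, from 42008158 to 42008915, was rank 7 of all peaks. Its summit carried 930 fragments (95% counting interval 871 to 992), which is 139-fold over a background of 5.69. The second, from 2633245 to 2633947, had 689 fragments (639 to 742) over 4.90, which is 117-fold. Next was the peak from 25923553 to 25924047, with the most fragments of the chromosome, 949 (890 to 1011), over 7.42, which is 113-fold. The counting intervals of the last pair overlap when given as fold, 108 to 126 and 106 to 120, so their order is not resolved. The peak at 2633245 was the single distal member of the 10, and 16.0-fold was the highest value among its 4 neighbours within 10 kb.

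A pair of strong peaks lay close to the centre of the chromosome. One, from 27995828 to 27996324, was 87.6-fold with 737 fragments, and the other, from 28446817 to 28447315, was 79.1-fold with 598. They were 450982 bp apart, and neither had another peak within 10 kb. Another 3 of the peaks above 50-fold were weaker. The peak from 5880594 to 5881093 was 55.04-fold with 396 fragments, that from 20627712 to 20628174 was 52.3-fold with 288, and that from 42475193 to 42476264 was 51.2-fold with 520. For the last the counting interval as fold, 46.9 to 55.8, includes the limit of 50, as do those of the other two, 49.8 to 60.7 and 46.4 to 58.6. Just below the limit was a peak of 49.3-fold from 22213964 to 22214573, so the count of 10 rests on a few fragments at its edge. The peak at 20627712 lay in the thin right flank of the longest peak-free stretch. That at 42475193 had its summit 467223 bp from the summit of the strongest peak of the chromosome, much the same distance as in the central pair.

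The background of the 10 peaks above 50-fold ran from 4.37 to 9.17 fragments with a median of 5.95, beside 6.11 for all peaks of the chromosome. Their pileups were 288 to 949 fragments, and a high pileup follows from the choice by fold. The central zone held 6 of them, the distal zones 1 and the parts between these zones 3. The nearest neighbouring summit was 844 to 11724 bp away. Its fold was 3.32 to 25.2.

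Several strong peaks lay together near the right edge of the central zone. Within 116 kb, 6 peaks above 20-fold followed each other at distances of under 100 kb. The first, from 35403842 to 35404234, was 23.8-fold with 152 fragments. The next 3 had summits 867 and 3393 bp apart, one from 35431305 to 35432124 at 23.8-fold with 220 fragments, one from 35432552 to 35432952 at 21.9-fold with 164, and one from 35435587 to 35436399 at 69.1-fold with 450. The strongest, from 35509729 to 35510760, was 83.5-fold with 447 fragments, and the last, from 35519891 to 35520268, was 25.2-fold with 134. The background was 4.37 to 8.29 fragments. In the pair above 50-fold, which are 813 and 1032 bp wide, the summit lay at 70.7% and 75.8% of the width. Linked in the same way, the other 11 chromosomes gave 1 group of 6, over 341 kb on chromosome 9, and none larger. Another group of chromosome 11 had 3 such peaks over 132 kb, from 9919702 to 10052011, at 30.3-, 35.2- and 22.8-fold. The groups were found after the peaks had been ranked, and no test was made.

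Peaks were crowded in some places without being strong. The most crowded 20 kb window of chromosome 11 ran from 2120001 to 2140000 and held the summits of 12 peaks. Their widths added up to 3662 bp, or 18.3% of the window length, although the last peak ran past the window to 2140062. The highest count in a window was 9 to 12 on the other 11 chromosomes, and 12 was reached by 1 of them, chromosome 9. The window before held 2 peaks and the window after held 5. In the 100 kb on each side there were 15 and 20 peaks. The window was chosen for its count, and no test was made.

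Peaks of the window fell into a tight left part and a looser right part. The first 7 summits, from 2120799 to 2126918, were 555 to 1367 bp apart. Their folds, in order, were 4.35, 3.15, 3.67, 4.74, 3.70, 4.27 and 3.44, over backgrounds of 6.35 to 8.73 fragments. These are all moderate peaks with 23 to 41 fragments, and all of their counting intervals overlap. Next came summits at 2130279 (5.30-fold), 2134287 (7.19-fold) and 2136859 (3.62-fold), 4008 and 2572 bp apart. The last 2, at 2139156 and 2139760, were the strongest, with 96 fragments (77.8 to 117) at 9.97-fold and 79 fragments (62.5 to 98.5) at 9.60-fold. They were 604 bp apart, and their intervals do not meet those of the first 7 peaks. The median fold of the window was 4.31, close to the 4.32 of the chromosome, and 6 of the 12 peaks were above the latter. The median background was 6.62, and none was at the lowest value.

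**Figure D4:**
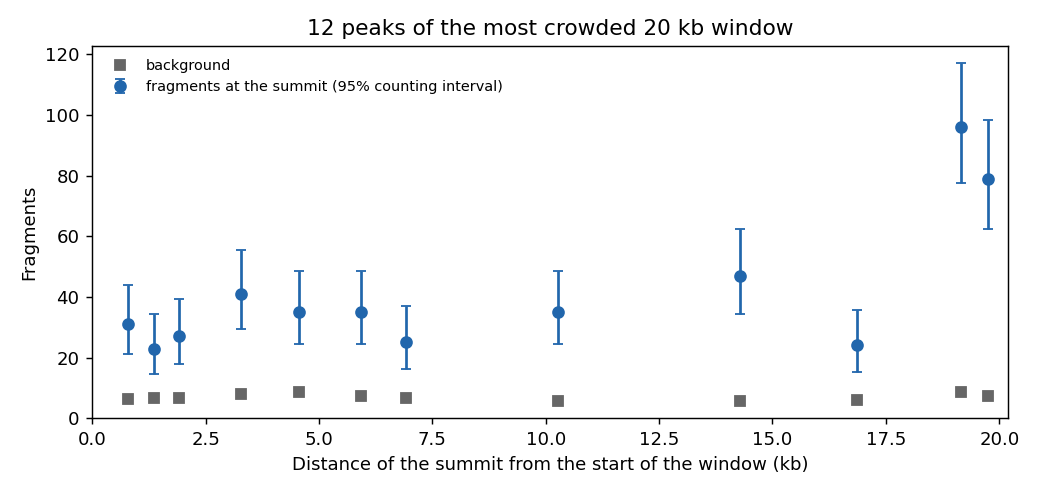
Fragments at the summit (blue, with exact Poisson 95% counting intervals) and background (grey squares) of the 12 peaks in the most crowded 20 kb window of chromosome 11, against the distance of the summit from the start of the window in kb. The first 7 peaks have 23 to 41 fragments, and the last 2 have 96 and 79.

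The longest run of close peaks lay at the other end of the chromosome. With summits under 2 kb apart counted as linked, 9 peaks followed each other from 52568929 to 52576243, over 7314 bp. Distances between them were 657 to 1232 bp with a median of 867 bp. Folds ran from 2.07 to 7.18 (median 4.16), pileups from 18 to 49 fragments and widths from 217 to 701 bp. None of these 9 peaks was strong. Runs of 9 were also the longest on chromosomes 1 and 2, and the other chromosomes reached 6 to 8. Chromosome 11 had 21 runs of at least 5 peaks, and 2625 of its peaks, or 59.4%, had no neighbour within 2 kb.

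In the full list, spacing on chromosome 11 was close to that elsewhere. The median distance between neighbouring summits was 5809 bp (quartiles 2083 and 14477), beside 5767 ± 401 bp on the other 11 (mean and SD of the medians). Distances of 500 to 2000 bp made up 23.3%, beside 23.2% ± 1.23. The exact two-sided permutation p was 1 for the first and 0.833 for the second. The shortest distance was 393 bp, and 26 of the distances were under 500 bp, where the peak caller can join close peaks. In the left distal zone the median distance was 3688 bp and 31.2% of distances were of 500 to 2000 bp. In the right distal zone these were 4012 bp and 27.5%, and in the central zone 8896 bp and 17.5%. Close spacing went with the density along the chromosome, but both come from the same summits, so this is no separate result.

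The background also differed along the chromosome. The lowest value was found at 1.65% of left distal, 2.70% of right distal and 10.2% of central peaks of chromosome 11. Its left distal share was below that of all 11 others, which had 1.77% to 12.8%. The right distal and the central share were each above 9 of the 11 others. The highest background, 14.4 fragments, was at a 2.92-fold peak from 14373645 to 14373892. The first peak of the chromosome, from 46481 to 46695, had 31 fragments over 9.33 and was 3.10-fold. The last, from 54361822 to 54362155, had 34 over 4.80 and was 6.03-fold. Peaks are listed only where the pileup passes the background, so these values describe listed peaks and not the input along the chromosome.

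**Figure D5:**
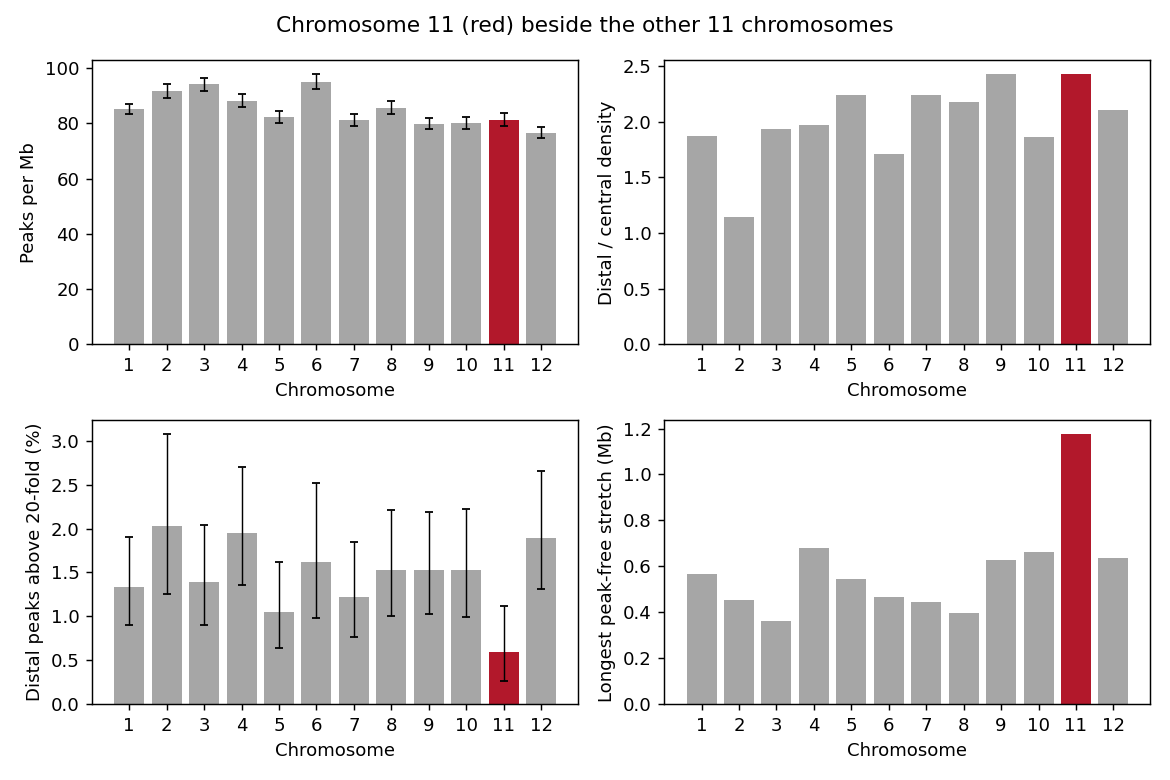
Peaks per Mb (bars with exact Poisson 95% intervals), ratio of distal to central density, share of distal peaks above 20-fold (bars with exact binomial 95% intervals) and longest peak-free stretch in Mb for each of the 12 chromosomes, with chromosome 11 in red. Chromosome 11 has the lowest share of strong distal peaks, 0.589%, and the longest stretch, 1.18 Mb.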

How the data were processed

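Per the submitters' processing notes, the authors used Bowtie2 2.2.5, MACS2 2.1.2 and ChIPseeker. How these were set, and how duplicate reads were treated, is not stated there. The deposited list holds, per peak, the fold enrichment (a ratio of pileup to local background), the −log10 p and −log10 q, a score and the offset of the summit. These are the authors' values, in the MACS2 layout, from 1 SlWUS library. The lowest −log10 q on chromosome 11 was 1.32. The score, as deposited, was not used. The sequence names give the SL4.0 build. The input library has no file of its own here.

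Pileup and background were recovered from fold and p, taking the fold as a ratio with 1 added to both terms and the p as a Poisson upper tail. All 65452 peaks gave a whole pileup, within 0.001 of the deposited −log10 p. Depth as total reads is unknown. The span of a chromosome was taken to the end of its last peak. A peak was placed in a window or zone by its summit. Counting intervals cover counting error only, since fragments may not be independent molecules, and peaks cluster, so intervals of densities are too narrow. Chromosome 11 was set against the 11 others by an exact two-sided permutation test on 24 measures. Chromosomes are parts of 1 library, so p-values do not describe repeat experiments.

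The members, zones, limits and named peaks (all above 50-fold, the 5 nearest on each side of the longest stretch, those of the most crowded window, the 5 widest, the first, the last and that with the highest background) were chosen with earlier results of these data known. Peaks of the run, the groups and the distal zones were named after their values were seen. No sequence or annotation of SL4.0 was used, so no gene is assigned to a peak. The calculations were tested on simulated data. Software was scipy 1.17.1, pandas 2.3.3 and numpy 2.4.6 under Python 3.11.15, with matplotlib 3.10.9 for plots.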

Additional observations from a re-analysis of the deposited data

How the results depend on the processing

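The longest peak-free stretch stayed on chromosome 11 with stricter lists and when measured between summits (1177511 to 1330949 bp). Peaks with −log10 q of at least 5 gave 64.1 per Mb, a median width of 325 bp and a spacing of 7916 bp. Peaks of at least 5-fold gave 29.8 per Mb, a ratio of distal to central density of 2.004, a width of 372 bp, a spacing of 18803 bp and at most 7 peaks per 20 kb. Fewer peaks enter both lists by construction. Ranked from the top among the 12 chromosomes, the density of chromosome 11 went from rank 8 to rank 10 in both lists. Its spacing went from rank 6 to rank 3 in the first list and rank 2 in the second. Joining peaks within 500 bp gave 75.7 per Mb, and gaps between intervals had a median of 5454 bp. Distal zones of 20% gave a ratio of 1.96 and a central zone of 40% to 60% gave 2.23, at which chromosome 11 was rank 4 of 12. Windows of 10 kb held at most 7 peaks, and chromosome 11 was then rank 5 of 12. Windows of 50 kb held at most 17, at which it was rank 7. Sliding 20 kb windows held at most 12 here, and 3 other chromosomes then had more. Limits of 20- and 100-fold gave 64 and 3 strong peaks. The distal share above 15-fold was 2.096% and above 30-fold 0.131%, both below all 11 others. These alternatives for the distal share were chosen after seeing the data. No paired analysis was possible because each group has 1 library.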
